A study of Mus musculus with 6 samples.

Results

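The Eph, ephrin, Slit, Robo, netrin and Unc5 genes encode guidance ligands and receptors, and 37 of the 23827 rows of the deposited table carried one of these symbols. Members were chosen by symbol alone: 9 EphA and 5 EphB receptor genes, 5 ephrin-A and 3 ephrin-B genes, 3 Slit, 4 Robo, 4 netrin and 4 Unc5 genes. Each symbol stood on a single row. The RNA was taken from mouse brain endothelial cells at E14.5 (embryonic day) by translating ribosome affinity purification, known as TRAP, which recovers mRNA bound to tagged ribosomes of a chosen cell type. In 3 libraries the embryos were wild type, and in the other 3 they carried R26 Axin1 IresLacZ overexpression, that is, an Axin1 transgene with a LacZ reporter at the Rosa26 locus. Both groups were of the C57BL/6 x 129/Sv background, and all mothers had received tamoxifen at E12.5. The labels call the 3 libraries of a group biological replicates, and they name neither the Cre line nor the promoter behind the tagged ribosome. Axin1 scaffolds the beta-catenin destruction complex of the Wnt pathway, so the comparison asks which translated RNAs differ under an excess of this inhibitor of Wnt/beta-catenin signalling.

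Ephrins are ligands held at the cell surface, the A type by a lipid anchor and the B type by a transmembrane segment. They bind Eph receptor tyrosine kinases on neighbouring cells, and signals run in both directions. In blood vessels ephrin-B2 (Efnb2) marks arterial endothelium and its receptor EphB4 (Ephb4) marks veins. Slit proteins are secreted ligands of Robo receptors, and Robo4 is the family member of endothelial cells. Netrins are secreted proteins read by Dcc, neogenin and the Unc5 receptors, of which Unc5b is the endothelial form and also binds Robo4. Most other members are best known from growing axons and neural progenitors.

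The 250 bases before the start of Efnb2, Ephb4 and Robo4 are printed because these genes are the arterial, venous and pan-endothelial members the results turn on. They come from RefSeq on GRCm38.p6, whose table held 33 of the 37 members and not Efnb3, Ntn1, Slit1 and Unc5d. The windows are chr8:8661243-8661492 on the minus strand for Efnb2, chr5:137349859-137350108 on the plus strand for Ephb4 and chr9:37401722-37401971 on the plus strand for Robo4. Capitals mark GGGCGG, the GC box, and GGAAG, an ETS core, on either strand.
Efnb2: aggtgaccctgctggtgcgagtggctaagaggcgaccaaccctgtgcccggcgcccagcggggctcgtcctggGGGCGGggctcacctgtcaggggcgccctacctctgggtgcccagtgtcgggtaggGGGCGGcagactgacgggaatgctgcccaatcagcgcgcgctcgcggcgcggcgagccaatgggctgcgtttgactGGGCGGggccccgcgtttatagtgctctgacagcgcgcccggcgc
Ephb4: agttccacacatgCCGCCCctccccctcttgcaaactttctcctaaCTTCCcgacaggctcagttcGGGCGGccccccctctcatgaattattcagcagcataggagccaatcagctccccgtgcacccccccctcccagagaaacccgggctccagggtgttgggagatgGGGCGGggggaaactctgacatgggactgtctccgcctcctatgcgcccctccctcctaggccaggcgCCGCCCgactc
Robo4: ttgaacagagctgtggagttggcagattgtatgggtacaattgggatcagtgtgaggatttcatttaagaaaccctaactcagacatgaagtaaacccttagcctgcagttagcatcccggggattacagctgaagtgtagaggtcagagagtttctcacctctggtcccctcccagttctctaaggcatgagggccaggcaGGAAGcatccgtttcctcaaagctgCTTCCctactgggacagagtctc
Robo4 differed from the other printed windows by holding 2 ETS cores and 0 GC boxes, at a GC content of 49.6%. Windows of other members also held ETS cores without a GC box, among them Efna4 (2 and 0) and Efnb1 (3 and 0). Efnb2 held 3 GC boxes and 0 ETS cores at 72.0% GC, and Ephb4 held 4 GC boxes and 1 ETS core at 64.0% GC. The letters ATCAAAG, a core that TCF and LEF factors of the Wnt pathway bind, were searched on both strands and were in 0 of the 38 windows listed for the members, against 3.21% of 32851 RefSeq windows of that length. GGGCGG was in 26 of the 38 windows (32.7% of all) and GGAAG in 23 (64.1% of all). The median GC content was 65.2% in the members' windows and 52.4% in all windows, and its part in these counts was not tested. GGGCGG and GGAAG can share letters where they abut. These are matches of letters and not measured binding sites.

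Depth and other whole-series facts bear on the members as follows. Library depth, in reads recovered from the table, lay between 53523988 and 62507580 in the wild-type libraries and between 21077145 and 37039875 in the Axin1 libraries. Levels are given as RPKM (reads scaled to the length of the transcript and the size of the library), which can be compared between genes. Axin1 itself was 13.6, 14.4 and 15.1 RPKM in wild type and 37.8, 38.1 and 37.4 RPKM in the overexpressing libraries, a rise in all 3 (log2 difference 1.34, SE 0.06, limma adjusted p = 2.25e-05). The endothelial markers Cdh5 and Pecam1 had wild-type means of 370 and 353 RPKM and Axin1 means of 394 and 386 RPKM. No unbound RNA was among these libraries, so enrichment over other cells was not measured. Sums of endothelial and other cell type markers are given below. Over all 12493 genes tested, 1800 were higher and 1046 lower, a split that became 1298 and 1338 when the libraries were rescaled by the median of ratios. The 2 counts were 589 and 465 without Axin1 replicate 2, and 801 and 601 without Axin1 replicate 3. The column names carry 1 tag for all wild-type libraries and another for all Axin1 libraries. If that tag marks a run, run and genotype cannot be told apart.

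The levels of the 37 genes covered a wide range, and 5 of them stood above 50 RPKM in wild type. These were the ephrin gene Efna1 at 167 ± 4.53 RPKM (SD, n = 3), Robo4 at 142 ± 3.34, Ephb4 at 80.3 ± 3.52, Unc5b at 76.4 ± 2.85 and Efnb2 at 52.1 ± 1.31. In that order Ephb4 and Unc5b were not separated by their libraries, while the other neighbours were. A further 8 members lay between 10 and 50 RPKM, 19 between 1 and 10, and 5 below 1. Among all 36 neighbouring pairs in the wild-type order, 23 overlapped in their libraries. The reads behind these values ran from 9 to 48 per library for Ntn5, the netrin gene with the fewest, to between 10122 and 31721 for Robo4. The precision of the lowest members is limited accordingly.

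In 4 of the 8 families a single gene made up at least 61% of the summed level in every library. Efna1, a ligand of EphA2, made up 86.2 to 86.8% of the summed ephrin-A RPKM in the wild-type libraries, Unc5b 91.5 to 92.5% of the Unc5 sum and Robo4 80.3 to 83.8% of the Robo sum. Ephb4 made up 61.4 to 65.6% of the EphB sum in wild type and 68.8 to 70.9% with Axin1 overexpression. The ephrin-B genes were more even, with Efnb2 at 43.3 to 49.2% in wild type and 49.5 to 53.8% with Axin1 overexpression, wild-type levels of 29.5 ± 4.15 RPKM for Efnb1 and 29.2 ± 3.09 RPKM for Efnb3 (SD, n = 3). The EphA receptors were more even still: Epha2 led with 28.1 to 29.8%, followed by Epha4 at 13.4 ± 0.521 RPKM and Epha5 at 10.8 ± 1.01 RPKM. Secreted ligands were low. Slit1 made up 51.5 to 52.8% of the Slit sum and Ntn1 52.1 to 54.5% of the netrin sum in wild type. Slit1 was 7.37 ± 0.486, Slit2 5.48 ± 0.262 and Slit3 1.30 ± 0.0865 RPKM, and of the netrins Ntn1 was 8.73 ± 0.632, Ntn3 4.26 ± 0.546 and Ntn4, a basement membrane netrin, 2.83 ± 0.275 RPKM (SD, n = 3). RNA of other cells in a TRAP sample can contribute to such levels, and in bulk libraries fewer cells of a type and less RNA per cell cannot be told apart.

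**Figure D1:**
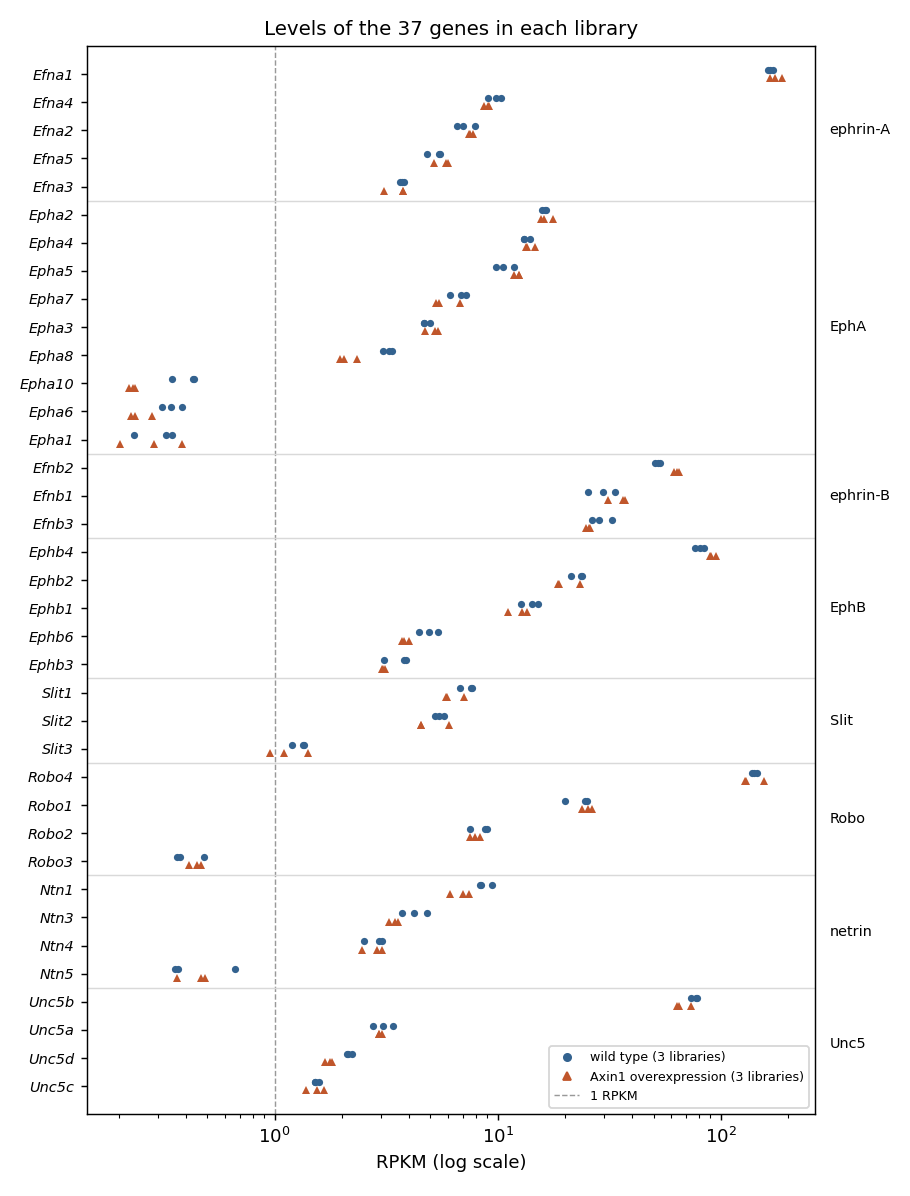
RPKM on a log axis for all 37 members, grouped by family, with circles for the 3 wild-type and triangles for the 3 Axin1 libraries; the dashed line is the 1 RPKM filter. Efna1, Robo4, Ephb4, Unc5b and Efnb2 stand apart from the rest of their families, and Epha1, Epha6, Epha10, Robo3 and Ntn5 lie below 1 RPKM.

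With Axin1 overexpression few members passed the threshold, and not passing does not show that a gene was unchanged. Of the 32 members with a mean of at least 1 RPKM, 5 passed an adjusted p of 0.05 in the limma fit over all genes, or 15.6%, where the share over all genes tested was 22.8%. Efnb2 rose (1 member higher, against 14.4% of all genes), and Epha8, Ephb6, Ntn1 and Unc5d fell (4 members lower, against 8.37% of all genes). The groups did not overlap for 8 of the 32 members, or 25.0%, against 43.9% of all genes: Axin1 libraries were all above for 2 (28.0% of all genes) and all below for 6 (15.9% of all genes). The median difference in log2(RPKM + 1), Axin1 minus wild type, was -0.07 over the tested members and 0.04 over all genes. All 32 had a mean of at least 1 RPKM in each group, and every member difference was smaller than 0.5 on this scale. The count of members past the threshold was 2 without wild-type replicate 1 or Axin1 replicate 2, and 1 without Axin1 replicate 3.

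Efnb2, the arterial ephrin, was 50.7, 52.2 and 53.3 RPKM in wild type and 63.99, 61.5 and 65.3 RPKM with Axin1 overexpression. All Axin1 libraries lay above all wild-type libraries. The difference in log2(RPKM + 1) was 0.28 (SE 0.06, 95% confidence interval 0.15 to 0.42, limma adjusted p = 0.0127), a ratio of means of 1.22. Leaving out Axin1 replicate 3 ended the call, with a difference of 0.27 and a limma adjusted p of 0.0509. In the authors' deposited table the ratio of Axin1 to wild-type mean normalized counts was 1.18, with an adjusted p of 0.105.

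Ephb4, the venous receptor of ephrin-B2, was 76.7, 83.8 and 80.4 RPKM in wild type and 95.2, 89.1 and 90.2 RPKM with Axin1 overexpression. Here too the groups did not overlap. The difference of 0.19 (SE 0.06, 95% confidence interval 0.04 to 0.33) did not pass, with a limma adjusted p of 0.062. It did pass under 5 of the 16 other settings, among them voom on recovered reads (0.20, limma adjusted p = 0.048). Another was a fit to values corrected in each library for transcript GC content and length, called GC-corrected hereafter (0.35, limma adjusted p = 0.00684). Reads recovered for Ephb4, whose row holds several transcripts, are estimates. With the libraries rescaled by the median of ratios the difference was 0.14 (limma adjusted p = 0.148). In the authors' deposited table the ratio of Axin1 to wild-type means was 1.10, with an adjusted p of 0.414. The ratio of Efnb2 to Ephb4 within a library was 0.661, 0.623 and 0.663 in wild type and 0.672, 0.690 and 0.723 with Axin1 overexpression. All Axin1 ratios lay above all wild-type ratios, by a mean of 0.10 on the log2 scale. GC-corrected, the differences of the 2 genes were nearly the same, at 0.353 for Efnb2 and 0.347 for Ephb4. The ratio of Efnb2 to Ephb4 was not tested.

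Other markers of arteries and veins went in different directions in the same libraries. Of 12 arterial markers tested, the gap junction gene Gja5 rose (difference 0.39) and Gja4 fell (-0.40), and the other 10 did not pass. Among them were Sox17 (-0.08), Hey1 (-0.16) and Dll4 (-0.21), and also Bmx (0.19), Vegfc (0.11) and Nrp1 (0.06). Of all 12 arterial differences, 4 were above 0 and 8 below. Of 6 venous markers tested, Nr2f2, the venous identity factor, rose (0.34), while Flt4 (-0.30) and the amino acid transporter gene Slc38a5 (-1.39) fell. GC-corrected, Flt4 did not pass, while Cxcr4 (-0.28) and Vwf (0.44) did. Summed RPKM of the arterial list was 556 to 581 in wild type and 483 to 546 with Axin1 overexpression, and without Gja4 the sums overlapped (354 to 382 and 334 to 372). That of the venous list was 691 to 713 and 526 to 548, and without Slc38a5 it was 420 to 438 in wild type and 423 to 438 with Axin1 overexpression. The part these lists play in the Efnb2 and Ephb4 values was not tested.

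**Figure D2:**
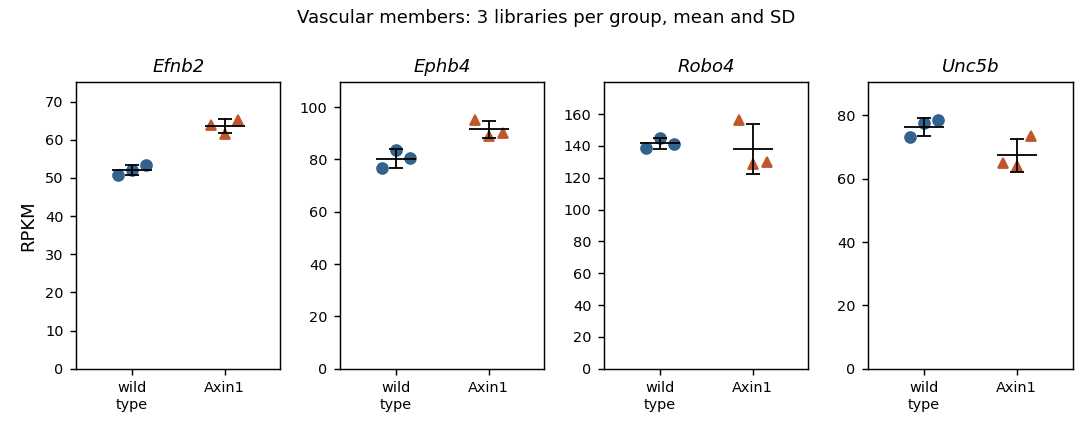
RPKM of Efnb2, Ephb4, Robo4 and Unc5b in each library, on axes that start at 0; bars give the mean and SD of 3 libraries. For Efnb2 and Ephb4 every Axin1 library lies above every wild-type library, while for Robo4 and Unc5b the groups overlap.

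Robo4, the endothelial Robo receptor, did not pass. It was 139, 145.2 and 141 RPKM in wild type and 156, 128 and 130 RPKM with Axin1 overexpression. Axin1 replicate 1 was the highest of the 6 libraries and the other Axin1 libraries were the lowest. The difference was -0.04 (SE 0.08, limma adjusted p = 0.754), with a 95% confidence interval from -0.23 to 0.15. Its sign was positive when Axin1 replicate 2 (0.011) or 3 (0.0017) was left out, and the GC-corrected difference was 0.074.

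Unc5b, the endothelial netrin receptor, was 73.2, 77.5 and 78.6 RPKM in wild type and 64.8, 63.9 and 73.5 RPKM with Axin1 overexpression. The highest Axin1 library, replicate 3, reached the lowest wild-type library. The difference of -0.18 (SE 0.07, 95% confidence interval -0.35 to -0.02) did not pass, with a limma adjusted p of 0.102. In the authors' deposited table the ratio of Axin1 to wild-type means was 0.854, with an adjusted p of 0.0836. The GC-corrected difference was 0.057. Within a library the ratio of Unc5b to Robo4 was 0.528, 0.534 and 0.558 in wild type and 0.414, 0.498 and 0.565 with Axin1 overexpression, and the groups overlapped. The summed RPKM of 11 pan-endothelial markers was 3767 to 3931 in wild type and 3308 to 3523 with Axin1 overexpression. Without Cldn5, a tight junction gene, the sums overlapped, at 2566 to 2640 and 2571 to 2806. Of the 11 markers Cldn5, Tie1 and Esam fell and Emcn rose. Their part in the Robo4 and Unc5b values was not tested.

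The largest difference among the 32 tested members was the fall of Epha8, an EphA receptor of the nervous system. It was 3.08, 3.27 and 3.35 RPKM in wild type and 2.34, 2.04 and 1.96 RPKM with Axin1 overexpression, so that every Axin1 library lay below every wild-type library. The difference was -0.44 (SE 0.07, limma adjusted p = 0.00418), a ratio of means of 0.654, and the call held when any single library was left out. The GC-corrected difference was -0.23, with a limma adjusted p of 0.0375. The authors' deposited table gave a ratio of 0.634 and an adjusted p of 3.48e-05.

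Ephb6, an EphB receptor without kinase activity, was 5.39, 4.43 and 4.94 RPKM in wild type and 3.81, 3.73 and 3.998 RPKM with Axin1 overexpression. The groups did not overlap, and the difference was -0.29 (SE 0.07, limma adjusted p = 0.0263). Leaving out a library ended the call (limma adjusted p between 0.0585 and 0.0983), except for wild-type replicate 2, and the GC-corrected difference of -0.14 did not pass. The authors' deposited table gave a ratio of 0.758 with an adjusted p of 0.0109.

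Ntn1, the founding netrin and a ligand of Unc5b, was 9.46, 8.40 and 8.33 RPKM in wild type and 7.47, 6.96 and 6.13 RPKM with Axin1 overexpression, again with no overlap. The difference was -0.31 (SE 0.08, limma adjusted p = 0.0294). Leaving out wild-type replicate 1 gave -0.26, Axin1 replicate 2 gave -0.32 and Axin1 replicate 3 gave -0.24, none of which passed. Without the filter on low values the limma adjusted p was 0.0601, and the GC-corrected difference was -0.09 with a limma adjusted p of 0.446. The authors' deposited table gave a ratio of 0.762 with an adjusted p of 0.0181.

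Unc5d, a receptor of netrins and FLRT proteins in the cortex, was 2.14, 2.23 and 2.12 RPKM in wild type and 1.77, 1.81 and 1.68 RPKM with Axin1 overexpression. The groups did not overlap. The difference of -0.20 (SE 0.06, limma adjusted p = 0.0376) lost its call when any single library was left out (limma adjusted p between 0.0659 and 0.127). It did not pass with trend and robust variances (limma adjusted p = 0.0751) or with a pseudocount of 10 (limma adjusted p = 0.200). The GC-corrected difference was also -0.20 (limma adjusted p = 0.0467), and the authors' deposited table gave an adjusted p of 0.0551.

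Epha10, another Eph receptor without kinase activity, lay below the filter and was not tested. It was 0.432, 0.437 and 0.348 RPKM in wild type and 0.237, 0.233 and 0.223 RPKM with Axin1 overexpression, with no overlap. The reads recovered were 102 to 137 and 24 to 44, which are estimates because its row holds several transcripts. The authors' deposited table gave an adjusted p of 0.017, and limma without the filter gave a difference of -0.19 with an adjusted p of 0.0263. By the authors' deposited table, 4 of the 37 members had an adjusted p under 0.05, namely Epha8, Ephb6, Ntn1 and Epha10, against 8.88% of all genes with a p. All 4 were lower with Axin1 overexpression (4.97% of all genes) and 0 were higher (3.91% of all genes). The first 3 also passed in the limma fit.

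Epha6, a further EphA receptor gene below the filter, was 0.344, 0.312 and 0.384 RPKM in wild type and 0.228, 0.282 and 0.236 RPKM with Axin1 overexpression, also with no overlap. Robo3, Epha1 and Ntn5 overlapped, with wild-type means of 0.407, 0.302 and 0.464 RPKM and Axin1 means of 0.444, 0.292 and 0.441 RPKM.

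**Figure D3:**
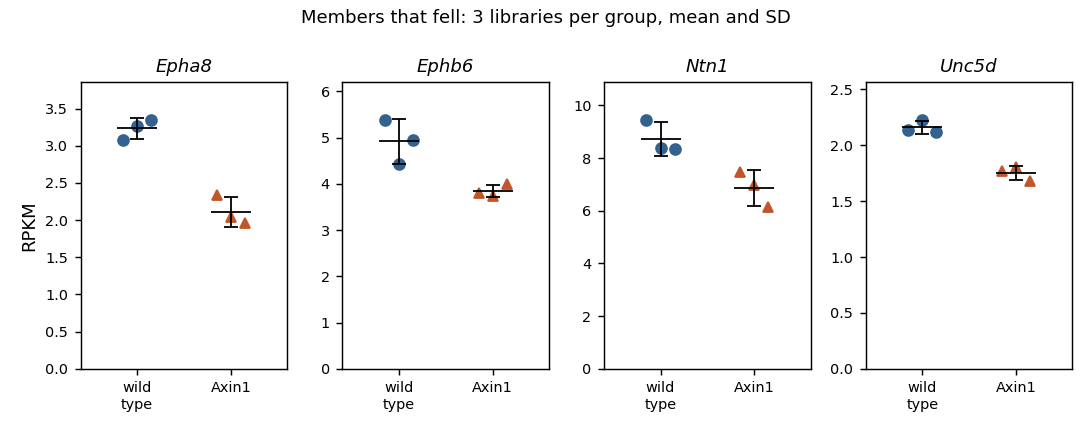
RPKM of Epha8, Ephb6, Ntn1 and Unc5d in each library, on axes that start at 0; bars give the mean and SD of 3 libraries. In each panel every Axin1 library lies below every wild-type library, with ratios of means from 0.654 for Epha8 to 0.811 for Unc5d.

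Markers of neural and other cells were measured beside the lower members. Summed RPKM of 12 neuron markers was 811 to 903 in wild type and 824 to 833 with Axin1 overexpression, and that of 12 neural progenitor markers was 1733 to 1908 and 2239 to 2344. Without Vim the progenitor sums were 583 to 722 in wild type and 777 to 860 with Axin1 overexpression. Without Reln the neuron sums were 599 to 728 and 699 to 728. Of the neuron markers 4 rose and 1 fell, and of the progenitor markers 7 rose and the other 5 did not pass. GC-corrected, 7 progenitor markers passed, all higher (Nes in place of Fabp7), but of the neuron markers none of these 5 did and 1 other, Bcl11b, was higher (0.43). Sums of 11 pericyte and smooth muscle markers were 31.4 to 35.6 and 22.9 to 30.4 RPKM, and those of 11 meningeal fibroblast markers were 235 to 347 and 251 to 257 RPKM. Sums of 8 microglia and macrophage markers were 18.8 to 21.6 and 20.02 to 36.0 RPKM. Sums of 12 rows of erythroid genes were 84.9 to 108 and 286 to 560 RPKM, mostly from Hbb-y (means 91.3 and 402 RPKM), while the 5 rows of Hba-a1, Hba-a2 and Hbb-b1 were listed at 0. The part of any of these cells in the members' values was not tested.

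The other 27 tested members did not pass, with differences from -0.24 to 0.24 and limma adjusted p from 0.062 to 0.97. The ligand gene with the highest level, Efna1, was 167, 172 and 163 RPKM in wild type and 174, 166 and 188 RPKM with Axin1 overexpression, with overlapping groups. Its difference was 0.07, with a 95% confidence interval from -0.08 to 0.23. Epha2, a receptor of ephrin-A1 on endothelial cells, was 15.8, 16.2 and 16.5 RPKM and 17.8, 15.7 and 16.2 RPKM, a difference of 0.03 (95% confidence interval -0.12 to 0.18). Efnb1, the X-linked ephrin-B, was 33.7, 25.4 and 29.6 RPKM and 36.5, 37.2 and 31.1 RPKM, with overlapping groups and a wide interval (difference 0.24, 95% confidence interval -0.01 to 0.49). Efnb3, an ephrin-B of neurons and the midline, had a difference of -0.18 (limma adjusted p = 0.126), and every Axin1 library (24.9 to 25.9 RPKM) lay below every wild-type library (26.5 to 32.6 RPKM).

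The other ephrin-A genes, whose products repel or sort axons in the brain, overlapped between groups. Their differences were 0.07 for Efna2, -0.06 for Efna3, -0.11 for Efna4 and 0.09 for Efna5, each with a 95% confidence interval that spans 0. Of the EphA receptors, Epha5 was 10.6, 9.84 and 11.8 RPKM in wild type and 12.4, 12.47 and 11.8 RPKM with Axin1 overexpression (difference 0.17, limma adjusted p = 0.121). Epha7 was 6.88, 6.12 and 7.18 RPKM and 6.79, 5.44 and 5.30 RPKM (difference -0.18, limma adjusted p = 0.197). Epha3 and Epha4 had differences of 0.08 and 0.05. The EphB receptors other than Ephb4 all had differences below 0. Ephb2, the highest of them, was 24.0, 23.8 and 21.3 RPKM and 23.4, 18.6 and 18.8 RPKM (difference -0.18, limma adjusted p = 0.194), and Ephb1 and Ephb3 had differences of -0.16 and -0.17. The sign of Ephb2 turned when GC-corrected (0.011).

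The axonal Robo receptors did not pass either. Robo1 was 24.6, 20.04 and 25.2 RPKM in wild type and 26.4, 25.5 and 23.9 RPKM with Axin1 overexpression, a difference of 0.12 (95% confidence interval -0.09 to 0.33). Robo2 had a difference of -0.08. Unc5a and Unc5c, netrin receptors of neurons, had differences of -0.03 and -0.0040, with wild-type means of 3.07 and 1.54 RPKM. Among the secreted ligands, Slit1 was 7.67, 7.63 and 6.80 RPKM in wild type and 7.09, 5.87 and 5.91 RPKM with Axin1 overexpression. The groups overlapped, and the difference of -0.20 did not pass (limma adjusted p = 0.11), except without Axin1 replicate 1, where it was -0.28 (limma adjusted p = 0.0427). GC-corrected it was 0.0064. Slit2 and Slit3 had differences of -0.11 and -0.09. Ntn3 was 4.22, 4.83 and 3.74 RPKM and 3.57, 3.48 and 3.27 RPKM. Its groups did not overlap, and the difference was -0.24 (limma adjusted p = 0.0661). Ntn4 had a difference of -0.01. Ntn3 shares 1.77% of its annotated exon bases with Tbc1d24 on the same strand, and for Efna3 and Efna4 14.6% and 10.5% lie opposite an antisense gene. Of the Ntn5 exon bases 23.4% lie opposite the coding gene Sec1, and of those of Epha1 6.97% lie opposite Zyx. Use of strand in counting was not given in the sources used here, so those reads cannot be assigned with certainty.

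**Figure D4:**
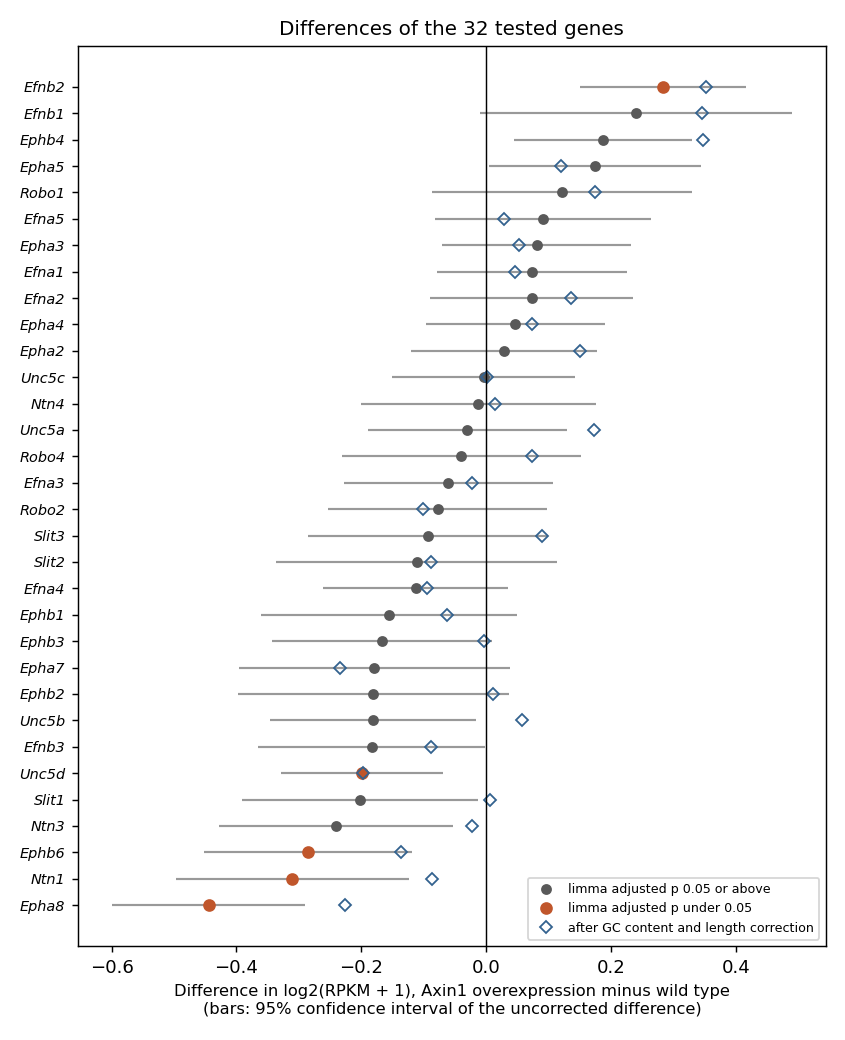
Difference in log2(RPKM + 1), Axin1 minus wild type, for the 32 tested members; filled points with 95% confidence intervals are the uncorrected values, orange where the limma adjusted p was under 0.05, and open diamonds are the GC-corrected values. Efnb2 is the single orange point above 0, and Unc5d, Ephb6, Ntn1 and Epha8 are the orange points below it.

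GC content moved with the differences. Over 12362 tested genes the difference fell with the GC content of the reference transcripts (Pearson r = -0.26 across genes, which share their libraries and are not independent). The median difference was 0.13 for genes under 45% GC and -0.05 for genes of at least 55%. The tested members had a median GC content of 56.5%, against 50.6% over all tested genes, and 18 of the 32 had at least 55%. Of these 18, 14 had a difference below 0, where 5145 of all 12493 tested genes did. That share was not counted for all genes of at least 55% GC. All 18 had a higher GC-corrected value. The correction takes out the trend with GC content and so raises GC-rich genes by its construction, which makes this no result about the members. In that fit 4 members passed, against 16.3% of all genes: Efnb2 (0.35) and Ephb4 (0.35) were higher, and Epha8 (-0.23) and Unc5d (-0.20) were lower. The median difference of the members was then 0.01, against 0.04 over all genes.

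**Figure D5:**
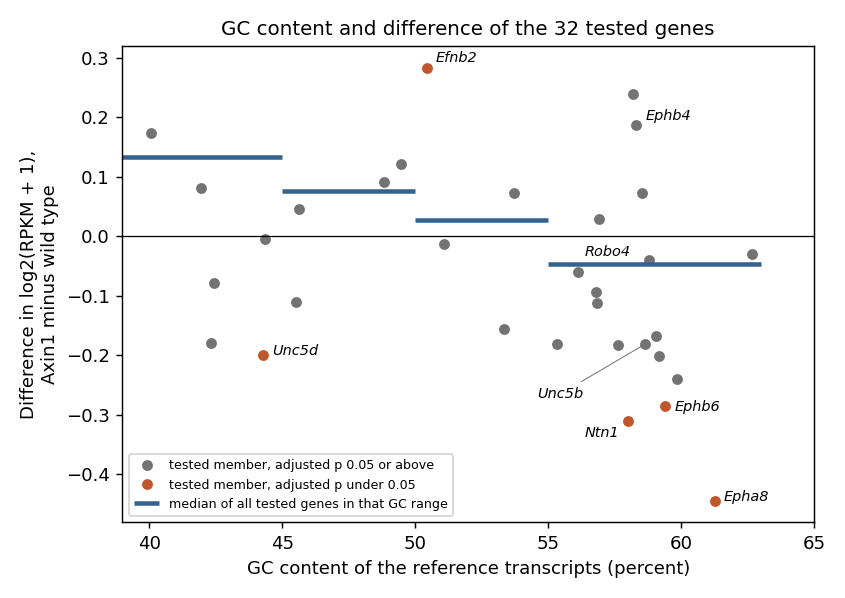
Difference in log2(RPKM + 1), Axin1 minus wild type, against the GC content of the reference transcripts for the 32 tested members, orange where the limma adjusted p was under 0.05; blue lines are the medians of all tested genes in 4 ranges of GC content. The medians step down from 0.13 under 45% GC to -0.05 at 55% and above, and Ephb6, Ntn1 and Epha8 lie at the GC-rich end.

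Genes that act with these ligands and receptors were read from the same fit. Of 44 partner genes tested, 3 rose (against 14.4% of all genes) and 7 fell (against 8.37% of all genes). Together 22.7% passed, close to the 22.8% of all genes. Grb7, among those that fell, met the filter of 1 RPKM only through its wild-type level. The median difference of the partner genes was -0.05. The count that passed was 6 without wild-type replicate 3, 4 without Axin1 replicate 2 and 5 without Axin1 replicate 3.

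Of 18 partners of Ephs and ephrins, 3 rose and 4 fell, so that 38.9% passed, against 22.8% of all genes. Adam10, the protease that cuts ephrins from the cell surface, was 136, 135 and 138 RPKM in wild type and 110, 95.1 and 100 RPKM with Axin1 overexpression (difference -0.42, limma adjusted p = 0.00535). Tiam1, a Rac activator that binds Ephs and ephrin-B, was 45.8, 46.9 and 49.3 RPKM and 32.7, 32.1 and 33.8 RPKM (difference -0.51, limma adjusted p = 0.0012). Neither gene's groups overlapped, and both calls held under every setting run. The adaptor gene Grb7 also fell (-0.86), from a mean of 2.05 to 0.657 RPKM. It met the filter of 1 RPKM only through its wild-type level, and without the filter its limma adjusted p was 0.033. Sipa1l1, which encodes an inhibitor of Rap signalling, fell as well (-0.20). Vav3, an exchange factor recruited by Eph receptors, rose by 0.37, the adaptor gene Nck1 by 0.27 and the phosphatase gene Acp1 by 0.58. The calls of Sipa1l1, Nck1 and Acp1 were each lost when any of at least 4 single libraries, Axin1 replicates 2 and 3 among them, was left out, and they also failed GC-corrected. That of Vav3 was lost without Axin1 replicate 2.

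Of 12 Slit and Robo partners 8.33% passed, against 22.8% of all genes. Srgap1, a GTPase-activating protein that binds Robo receptors, fell (-0.30) and the other 11 did not pass. Leaving out a library ended that call, except for wild-type replicate 1. It was also lost when GC-corrected (limma adjusted p = 0.0922), without the filter (0.0811) and with a pseudocount of 0.1 (0.0546). Of 14 netrin and Unc5 partners, 2 fell (14.3%, where 8.37% of all genes were lower) and the other 12 did not pass. They were the netrin receptor genes Neo1, from 16.6 ± 0.13 to 13.5 ± 0.834 RPKM, and Dscam, from 5.89 ± 0.392 to 4.12 ± 0.298 RPKM (SD, n = 3). Their differences were -0.28 and -0.43, and the Neo1 call was lost without Axin1 replicate 2 or 3. The classical netrin receptor gene Dcc did not pass (-0.09, limma adjusted p = 0.638).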

How the data were processed

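TRAP RNA of brain endothelial cells was sequenced as polyadenylated RNA with a TruSeq v2 kit, per the labels' protocols. Bowtie, DESeq and build mm9 appear in the submitters' processing notes without versions, and the read counter was not given in the sources used here. The authors deposited RPKM per gene and library; the header does not name that unit, and the values imply transcript lengths at a median of 0.998 of the reference over 13655 genes. Per the file headers, the authors also deposited a normalized count signal averaged by group, a fold (wild type over Axin1, by the values), and raw and adjusted p-values. Which group a mean belonged to was read from genes with reads in 1 library. Combining means and RPKM gave whole reads within 0.05 for 99.99% of values below 1000 reads of genes with 1 transcript, and 38.5% for genes with several.

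limma 3.58.1 (R 4.3.3) was run on log2(RPKM + 1), which understates changes of low genes, with group as the only factor, for 12493 genes whose mean reached 1 RPKM, with two-sided Benjamini-Hochberg adjusted p over all genes and a threshold of 0.05. With 3 libraries a group, exact permutation cannot reach a p below 0.10 and was not used. Confidence intervals are limma's and cover 95%. GC content and length came from GENCODE M21 transcripts for 12362 genes. Figures used Python 3.11.15 and matplotlib 3.10.9. Named were the vascular members, each member past the threshold, the highest member of each family and partners past the threshold; other members and markers were named after their values were seen. Members, lists and tests were chosen with earlier results of these data known.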

Additional observations from a re-analysis of the deposited data

How the results depend on the processing

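The count of members past the threshold was 3 with a mean of at least 5 RPKM, where 21 members were tested, and ranged from 1 to 5 when a library was left out. That of partner genes ranged from 4 to 10. Efnb2 kept its direction and its call under every setting but the omission of Axin1 replicate 3; its differences ranged from 0.26 to 0.31 with a library left out. Ephb4 passed with a pseudocount of 10 (0.17), a mean of at least 5 RPKM (0.19), trend and robust variances (0.19), voom (0.20) and GC-corrected values (0.35), the last of which was chosen after seeing the data. It did not pass under the other settings, among them the median of ratios (0.14, limma adjusted p = 0.148) and an upper quartile scaling (0.15, limma adjusted p = 0.124). The sign of Robo4 turned without Axin1 replicate 2 (0.011) or 3 (0.0017), so that its values without a library ranged from -0.13 to 0.011, and GC-corrected (0.074). GC correction also turned Unc5b (0.057) and Slit1 (0.0064). Epha2 turned with the median of ratios (-0.014), an upper quartile scaling (-0.0059) and without Axin1 replicate 1 (-0.021), with values up to 0.064 when another library was left out. Of the 21 other tested members, 6 turned sign and 3 passed under some setting. The cause of these shifts was not tested. With the replicate number as a block, 4 members and 9 partner genes passed; Unc5d (limma adjusted p = 0.0642) and Sipa1l1 (0.0643) did not. Same-numbered libraries deviated together only weakly (correlations 0.078, 0.127 and 0.059). Each library still correlated best with its own number, which comes from the data and not from the design. Deviations were taken from group means, so positive correlations must be offset by negative ones, and this pattern cannot decide whether libraries are paired. Whether the numbers pair the libraries is not known from the labels. The lowest member reads, 9 in a library for Ntn5, limit what can be seen below 1 RPKM.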
